A study of Caenorhabditis elegans with 2 samples.

Results

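The genes described here are 10 genes for muscle thin and thick filament proteins of Caenorhabditis elegans, out of 19973 protein-coding nuclear genes in the annotation. They are the actin genes act-1, act-2, act-3 and act-4, the myosin heavy chain genes myo-3 and unc-54, the tropomyosin gene lev-11 and the myosin light chain genes mlc-1, mlc-2 and mlc-3. A peak was given to a gene when its summit lay between 2 kb upstream of the gene start and the gene end, and all 10 genes were found in the annotation. The data are chromatin immunoprecipitation (ChIP-seq) peaks of the transcription factor EGL-43, precipitated with an antibody against GFP. There was 1 group with 2 biological replicates, strain RW12181 with the genotype st12181[egl-43::TY1::EGFP::3xFLAG] II, in which CRISPR placed the tag in the egl-43 gene itself. The animals were whole L4 larvae at 49 hours, synchronised as starved L1 larvae after bleaching. All tissues were therefore mixed in each sample, and the cells in which a site was occupied cannot be told apart. No untagged worms and no control library were analysed here, so a peak cannot be set against the signal that the antibody gives without the tag.

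Muscle contracts when myosin heads of the thick filaments pull on actin in the thin filaments. Each myosin is made of heavy chains with regulatory and essential light chains, while tropomyosin and troponin lie along actin and let calcium set the timing. In the worm these proteins fill the body wall muscles that run along the animal and also serve the vulval, uterine and pharyngeal muscles. EGL-43 is a zinc finger protein related to mammalian EVI1 and is best known from the gonadal anchor cell, whose invasion it promotes, and from migrating neurons.

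The peaks that passed the authors' threshold at these genes lay upstream of act-2, act-3, act-4 and unc-54 and in introns of act-4, and a further one upstream of act-1 was present in replicate 2 alone. The 101 bases around the summits at the actin genes are shown because these sites carry the results that follow. They are from the WBcel235 assembly (ce11), read on the strand of the gene, 5' to 3', and capitals mark a match to the E-box letters CANNTG. The last one is the summit that act-1 and act-2 share in the series ranked list, and it is the only one of these sequences with such a match.
act-4, 75 bp upstream of the start (chrX:4960496-4960596, plus strand): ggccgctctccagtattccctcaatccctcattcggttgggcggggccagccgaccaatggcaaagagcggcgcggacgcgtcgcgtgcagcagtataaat
act-4, intron, 546 bp after the start (chrX:4961117-4961217, plus strand): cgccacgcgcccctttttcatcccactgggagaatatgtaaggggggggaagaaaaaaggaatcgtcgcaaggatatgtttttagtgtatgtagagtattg
act-4, intron, 1767 bp after the start (chrX:4962338-4962438, plus strand): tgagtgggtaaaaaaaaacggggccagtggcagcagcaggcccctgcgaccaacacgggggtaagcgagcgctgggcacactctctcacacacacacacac
act-3, 1384 bp upstream (chrV:11075832-11075932, minus strand): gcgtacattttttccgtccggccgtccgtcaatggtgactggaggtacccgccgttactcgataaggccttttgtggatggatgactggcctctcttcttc
act-2, 363 bp upstream (chrV:11078467-11078567, minus strand): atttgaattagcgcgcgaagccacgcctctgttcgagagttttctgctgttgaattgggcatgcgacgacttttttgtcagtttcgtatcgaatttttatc
act-1, 562 bp upstream, replicate 2 (chrV:11080440-11080540, plus strand): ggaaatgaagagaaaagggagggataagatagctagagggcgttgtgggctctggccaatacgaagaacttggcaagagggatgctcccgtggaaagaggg
act-1, 1413 bp upstream, ranked list (chrV:11079589-11079689, plus strand): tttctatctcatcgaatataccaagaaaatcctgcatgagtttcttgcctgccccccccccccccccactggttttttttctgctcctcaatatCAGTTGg

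Each replicate has a ranked list, which holds weak and strong peaks alike, and a thresholded list of the reproducible ones, and the series has the same for both replicates together. The score of a peak, at most 1000, is the authors' measure of how reproducibly it ranks, and the lowest score in every thresholded list was 830. The signal value is the authors' own measure of peak strength, on a scale that was not given in the sources used here, so it is compared only within a list. The series thresholded list held 3146 peaks with a median signal of 139.6, the replicate 1 list 1532 peaks and the replicate 2 list 1621 peaks. The ranked lists held 65641 peaks for the series, 69945 for replicate 1 and 64499 for replicate 2. The lists hold no read counts, so the depth is unknown and no error can be given for a single peak. With 1 group there was nothing to test between conditions, and the spread is that between 2 replicates.

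In the series thresholded list 4 of the 10 genes had a summit, namely act-2, act-3, act-4 and unc-54, which is 40.0%. Among all protein-coding genes it was 13.6%, or 2720 genes. The windows of the 10 genes were 2795 to 11926 bp long, and among the 16422 genes with a window in that range the share was 12.9%. The conservative thresholded list named the same 4 genes, against 13.1% of all genes. Replicate 1 named 2 genes, act-3 and act-4, against 7.11% of all genes and 6.80% of those with a window in the same range. Replicate 2 named 4 genes, act-1, act-3, act-4 and unc-54, against 7.42% of all genes and 6.94% of those with such a window. Thus act-3 and act-4 were in every thresholded list, unc-54 was absent from that of replicate 1, and act-1 and act-2 changed places between the series and replicate 2. With only 10 genes, these shares are descriptions and were not tested. Of the 10, act-1, act-2 and act-3 are neighbours in the genome, as are mlc-1 and mlc-2. The bar plot of shares sets these counts beside those of 57 related genes, described further on.

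**Figure D1:**
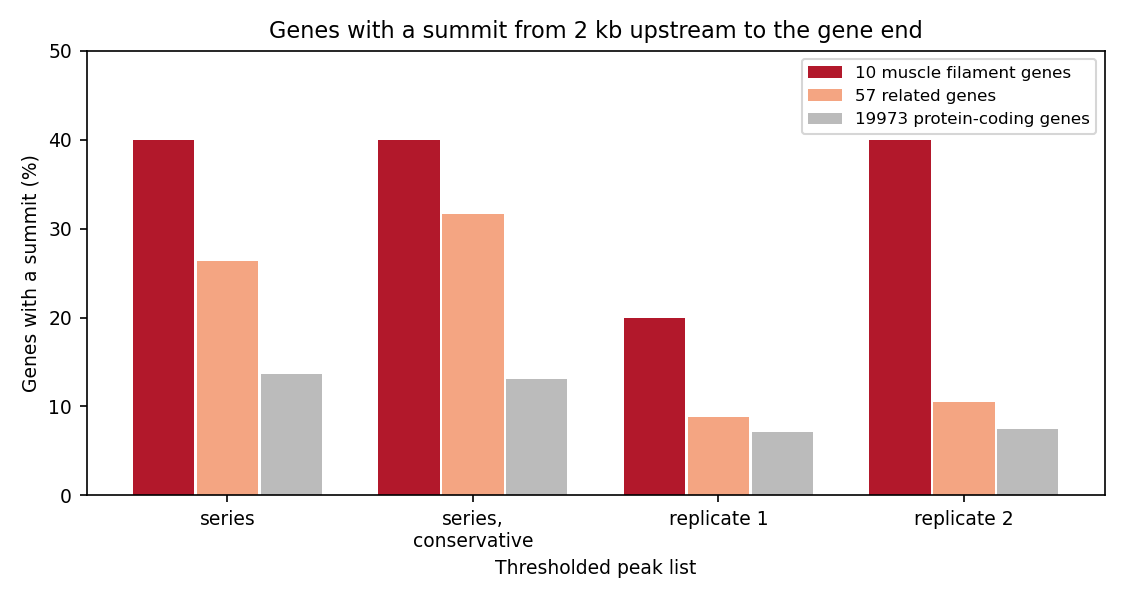
Share of genes (%) with a summit from 2 kb upstream to the gene end in each thresholded list. Red bars are the 10 muscle filament genes, orange bars 57 related genes (other filament, attachment and excitation genes, muscle regulators and a few relatives known from other cells) and grey bars all 19973 protein-coding genes. The red bar stands at 40.0% in 3 lists and at 20.0% in replicate 1, and the grey bars at 13.6%, 13.1%, 7.11% and 7.42%.

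The ranked lists gave a different picture. All 10 genes had a summit in the series ranked list, against 59.1% of all genes, and all 10 also had one in the ranked list of replicate 1, against 65.2%, and in that of replicate 2, against 61.9%. The median over the 10 genes of the strongest signal was 99.3 in the series ranked list, against 81.8 over all genes with a peak. It was 54.1 against 42.8 in replicate 1 and 71.2 against 45.7 in replicate 2. The median number of ranked peaks per kb of window was 1.42 for the 10 genes in the series, against 1.15 over the genes with a peak and 0.564 over all genes, which include those with none. In replicate 1 it was 1.42, against 1.10 over genes with a peak. In replicate 2 it was 1.12, against 1.07 over genes with a peak, so the difference was small there. The 10 genes held 78 distinct peaks of the series ranked list. One of them served both act-1 and act-2, which makes 79 pairs of a gene and a peak. Of these pairs 36 lay in coding exons, 23 in introns, 17 upstream, 2 in a 3' UTR and 1 in a 5' UTR. Of the 6 peaks past the threshold, 4 lay upstream, 2 in introns and 0 in coding exons. The places of all other peaks of these lists were not counted. Whether this difference is particular to the 10 genes therefore cannot be told. The map of summits shows this layout, with the thresholded summits before the start or in act-4 introns, and the weaker ones both upstream and along the gene bodies. Of the 17 upstream pairs 4 were past the threshold, and the mlc-1 peak 184 bp upstream, with a signal of 99.1, was among those that were not.

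**Figure D2:**
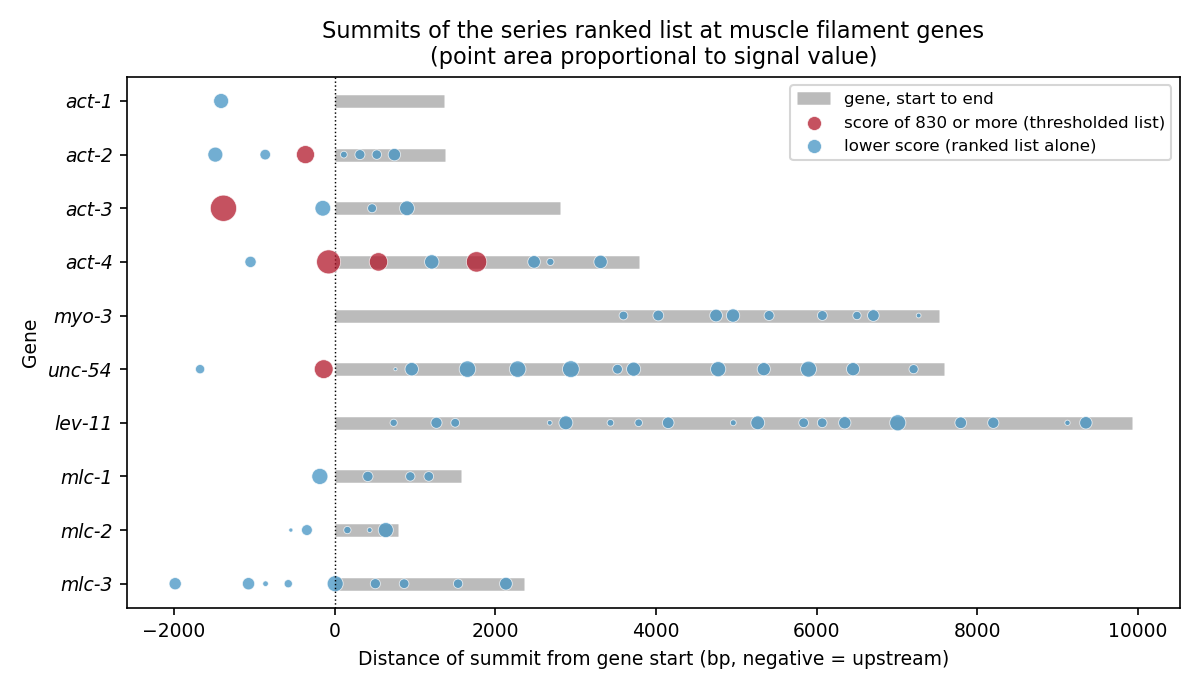
Distance of each series ranked summit from the gene start (bp, negative upstream) for the 10 genes, with grey bars for the gene and point area in proportion to the signal value. Red points have a score of 830 or more and number 6, at act-2, act-3, act-4 and unc-54, while blue points have lower scores. Most blue points of unc-54 lie in coding exons. Those of myo-3 all do, from 3596 bp after the start onward.

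The actin gene act-4 (chrX:4960621-4964413, plus strand) had 3 of the 6 peaks, more than any other of the 10 genes. Actin is the building block of the thin filament, and act-4 is a muscle actin gene that stands apart from the cluster of the other members. Among all genes 0.826%, or 165 genes, had 3 or more summits in the series thresholded list, where 2720 genes had any. Among the related genes described further on, sca-1 had 4. The act-4 peak upstream of the start (chrX:4960381-4960710, summit 75 bp before it) had a signal of 221.4 and was number 577 of 3146, above 81.7% of the list. In the replicate ranked lists the overlapping peak had a signal of 126.6 and rank 499 in replicate 1, and 95.6 and rank 956 in replicate 2. Both passed the threshold, with scores of 1000 in replicate 1 and 925 in replicate 2, and both summits lay 1 bp from the series summit.

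The intron peak 546 bp after the start of act-4 (chrX:4961002-4961331) had a signal of 130.1 and was number 1900 in the series thresholded list. Its counterpart had 81.6 with a score of 1000 in replicate 1, and 57.3 with a score of 836 in replicate 2. Replicate 2 therefore placed it just past the limit of 830, above 4.07% of its thresholded list. The intron peak 1767 bp after the start (chrX:4962318-4962403) had a signal of 159.5, was number 1134, and lay 487 bp upstream of the second start site that the annotation gives for act-4. Replicate 2 had it past the threshold, with a signal of 89.7 and a score of 1000. In replicate 1 it had a signal of 72.5 but a score of 495 and was not in the thresholded list. This peak was only 86 bp wide in the series and 83 bp in replicate 2, against a median width of 330 bp in the series list, where 55 peaks, or 1.75%, were under 100 bp.

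The strongest peak of the 10 genes was the one given to act-3 (chrV:11071690-11074498, minus strand), one of the body wall muscle actins. It spanned chrV:11075867-11075953, 87 bp, with a signal of 264.3, and was number 408 of 3146. In the replicate ranked lists the overlapping peak had 122.8 and rank 526 in replicate 1, and 142.8 and rank 395 in replicate 2. Each had a score of 1000. This peak lay above 67.0% of the thresholded peaks of replicate 1 and above 76.6% of those of replicate 2. Its summit lay 1384 bp upstream of act-3, but 895 bp past the end of act-2, which lies on the same strand, so the gene it belongs to cannot be told from position alone. The noncoding RNA genes T04C12.15 and T04C12.21 lay within 500 bp of the summit. Nearer to the start of act-3, 147 bp upstream, the series ranked list held a weaker peak with a signal of 94.4 and a score of 697. It had 46.8 with a score of 396 in replicate 1, and its counterpart 92 bp upstream had 49.1 with a score of 320 in replicate 2. Within the gene the series ranked list had 2 further summits, both in introns and none in a coding exon, and each replicate gave the same.

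For act-2 (chrV:11076777-11078154, minus strand), which lies between act-3 and act-1, the series and the replicates differed. Its peak 363 bp upstream (chrV:11078352-11078681) had a signal of 125.3 and a score of 1000 in the series, number 2100 of 3146. The overlapping peak had a signal of 51.8 and a score of 429 in replicate 1, and 74.3 and a score of 797 in replicate 2. Neither replicate had it past the threshold. That was common, since of the 2720 genes with a series summit 36.2%, or 984, had none in either replicate thresholded list. The noncoding RNA genes T04C12.18, T04C12.23, T04C12.24 and T04C12.28 were annotated within 500 bp. The act-2 coding exons held 4 weak summits in the series ranked list, with signals of 17.4 to 59.0, 2 in replicate 1 and 3 in replicate 2.

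The opposite case was act-1 (chrV:11081052-11082415, plus strand), which had a thresholded peak in replicate 2 alone. Of the 1481 genes with a summit in the replicate 2 thresholded list, 83 had none in the series list, which is 0.416% of all genes. The 36.2% given for the act-2 case is a share of genes with a series summit, so these shares have unlike bases. The peak (chrV:11080328-11080651, summit 562 bp upstream) had a signal of 76.8 and a score of 919, and was number 1413 of 1621 in replicate 2. No peak overlapped it in the replicate 1 ranked list or in the series ranked list, although those lists also hold weak peaks. The nearest summit lay 833 bp away in replicate 1, with a signal of 52.5 and a score of 596, and 851 bp away in the series, with 85.6 and 617. That series peak (chrV:11079474-11079803) was the only one that the series ranked list gave to act-1. It lies between the divergent act-1 and act-2 genes, whose starts are 2898 bp apart, and so it was counted for both, 1413 bp upstream of act-1 and 1485 bp upstream of act-2. In replicate 2 the summit in this stretch had a signal of 37.5 and a score of 131. No ranked summit lay within the act-1 gene in the series or in either replicate.

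The coding sequences of these actin genes are nearly alike. Over 1128 bases, act-1 and act-3 differed at 0 positions, act-1 and act-2 at 43 (96.2% identity) and act-1 and act-4 at 66 (94.1%). Of the words of 50 bases in the coding exons, all in act-1 and in act-3 occurred elsewhere in the genome, against 31.9% in act-2 and 11.8% in act-4. With words of 100 bases it was still all of them in act-1 and act-3, but 13.8% in act-2 and 2.2% in act-4. Reads that lie wholly within a repeated stretch cannot be placed uniquely. How the authors treated them, and the read length, were not given in the sources used here, so the lack of summits in act-1 and in the coding exons of act-3 cannot be read as low binding. Judged by words of 50 bases, the 6 thresholded summits were placed in unique sequence. Within 150 bp of each, 0 of 252 such words were repeated, and the same held for the act-1 summit of replicate 2. With words of 36 bases, 5 of 266 were repeated at the act-4 summit 1767 bp after the start.

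The major myosin heavy chain of body wall muscle, MHC B, is encoded by unc-54 (chrI:14855901-14863482, minus strand). Its thresholded peak (chrI:14863453-14863782) had a summit 136 bp upstream of the start, a signal of 135.8 and rank 1692 of 3146. The overlapping peak had a signal of 52.6 and a score of 547 in replicate 1, and 83.3 and a score of 995 in replicate 2. It passed the threshold in replicate 2 only. In the series ranked list unc-54 had 14 summits, of which 12 lay in coding exons with signals from 3.99 to 108.2. The strongest of these came closest to the limit of all series ranked peaks of the 10 genes that missed it, at 2941 bp after the start with a signal of 108.2 and a score of 795, and at 1654 bp with 104.3 and 784. The 6 peaks past the limit all had the highest possible score, 1000, so their distance from the limit cannot be read from it. In the conservative thresholded list the act-2 peak had 937, the unc-54 peak 976 and the act-3 and act-4 peaks 1000. In replicate 1 a coding exon summit 5875 bp after the start was the strongest of the gene, with 61.5, ahead of the promoter peak with 52.6. The order was the other way round in replicate 2, where the promoter peak had 83.3 and the strongest coding exon peak, 2941 bp after the start, had 55.3.

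The other body wall heavy chain, MHC A, which forms the middle of the thick filament, is encoded by myo-3 (chrV:12226817-12234343, minus strand). None of its peaks passed the threshold. The series ranked list gave it 9 summits, all in coding exons between 3596 and 7271 bp after the start, with signals from 8.65 to 68.3. Replicate 1 gave 6 and replicate 2 gave 10, again all in coding exons, and no ranked summit lay upstream of the gene in any of the 3 lists. The strongest had 55.6 in replicate 1, at 6703 bp, and 32.2 in replicate 2, at 6368 bp. Relative to other genes this was the widest gap between the replicates among the heavy chain and tropomyosin genes, since the strongest myo-3 peak exceeded that of 73.8% of genes in replicate 1 and of 20.1% in replicate 2.

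Tropomyosin, which covers the myosin sites on actin, is encoded by lev-11 (chrI:14621169-14631094, minus strand), a gene with 11 annotated start sites. It had the most ranked summits of the 10 genes, 18 in the series, of which 15 lay in introns and 3 in coding exons. None passed the threshold. The strongest, 7011 bp after the first start, had a signal of 99.5 and a score of 559. Its counterparts had 61.3 and a score of 412 in replicate 1, and 44.2 and a score of 103 in replicate 2. All of these summits lay in a coding exon, but also close to another annotated start site. The series summit was 51 bp after that site, that of replicate 1 64 bp after it and that of replicate 2 9 bp before it. Upstream of the first start, 104 bp before it, replicate 2 alone had a summit, with a signal of 28.1 and a score of 97.

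None of the light chain genes had a thresholded peak. The regulatory light chains are encoded by mlc-1 (chrX:17459210-17460778, plus strand) and mlc-2 (chrX:17455792-17456586, minus strand), divergent neighbours whose starts are 2624 bp apart and which shared 0 series ranked peaks. Their coding sequences differed at 17 of 510 bases (96.7% identity), and 17.0% of the words of 50 bases of mlc-1 and 17.2% of those of mlc-2 were repeated in the genome. The strongest mlc-1 peak lay 184 bp upstream of the start, with a signal of 99.1 and a score of 535 in the series. It had 33.5 and a score of 113 in replicate 1, and 68.2 and a score of 397 in replicate 2, with the summit 123 bp upstream. The strongest mlc-2 peak lay in a coding exon, 637 bp after the start, with rank 7221 in the series ranked list and a score of 665. Replicate 1 gave the gene at most 36.2 and replicate 2 at most 55.1.

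The essential light chain gene mlc-3 (chrIII:5565025-5567382, plus strand) had its strongest peak at its start, with the summit 7 bp into the 5' UTR, a signal of 98.3 and a score of 642. In replicate 1 the peak had 51.5 and a score of 275, with the summit 23 bp upstream of the start, and in replicate 2 it had 52.3 and a score of 450, 20 bp upstream. The position thus differed by fewer bases than the peak is wide. Of the 9 mlc-3 summits in the series ranked list, 4 lay within the neighbouring gene rpc-2.

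The replicates can be set side by side by asking how each gene's strongest peak compared with those of all other genes that had a ranked peak, 13030 in replicate 1 and 12356 in replicate 2. The gene act-3 exceeded 95.9% of genes in replicate 1 and 96.8% in replicate 2, and act-4 96.1% and 92.6%, so both stood high in each. For unc-54 it was 80.9% in replicate 1 and 90.0% in replicate 2, and for mlc-3 67.3% and 63.2%. The largest gaps were at mlc-1, with 27.3% in replicate 1 and 82.6% in replicate 2, and at myo-3. Thus act-3 and act-4 were the top genes in both replicates, although their own order differed, and the order below them differed as well. In replicate 2 the 4 actins filled 4 of the 5 highest places, with unc-54 between them.

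**Figure D3:**
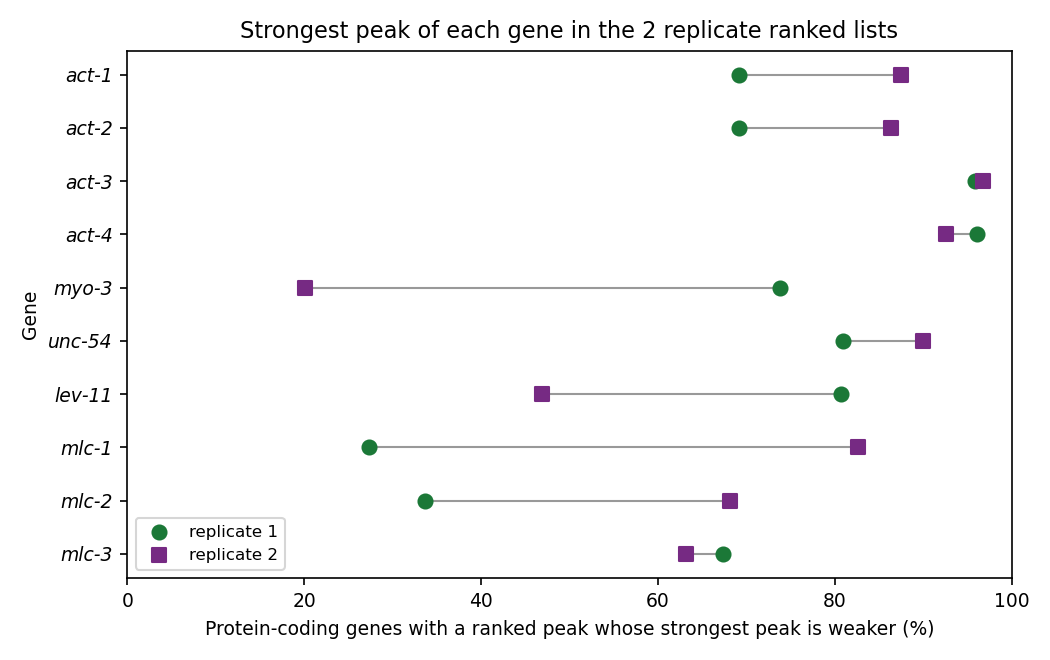
Place of the strongest peak of each of the 10 genes in the ranked list of replicate 1 (green circles) and of replicate 2 (purple squares), as the share (%) of protein-coding genes with a ranked peak whose strongest peak is weaker. The 2 points lie together at act-3, act-4 and mlc-3 and farthest apart at mlc-1 and myo-3.

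Of the 6 series thresholded peaks at these genes, 3 shared at least 1 bp with a thresholded peak of replicate 1, 5 with one of replicate 2 and 3 with both. These 3 were the act-3 peak and the act-4 peaks 75 bp upstream and 546 bp after the start. Over all 3146 series peaks, 1337 overlapped a thresholded peak of replicate 1 and 1483 one of replicate 2. Of these 3146 peaks, 30.6% overlapped one in both replicates and 40.9% in neither. The act-2 peak was the only one of the 6 in neither. All 6 overlapped a peak in the ranked list of each replicate, lists that hold 69945 and 64499 peaks. The share of all series peaks that did so was not counted, so whether this sets these 6 apart cannot be told. The plot of scores shows by how much the other genes missed the limit, with the highest series score at 665 for mlc-2, 642 for mlc-3, 617 for act-1, 584 for lev-11, 535 for mlc-1 and 396 for myo-3.

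**Figure D4:**
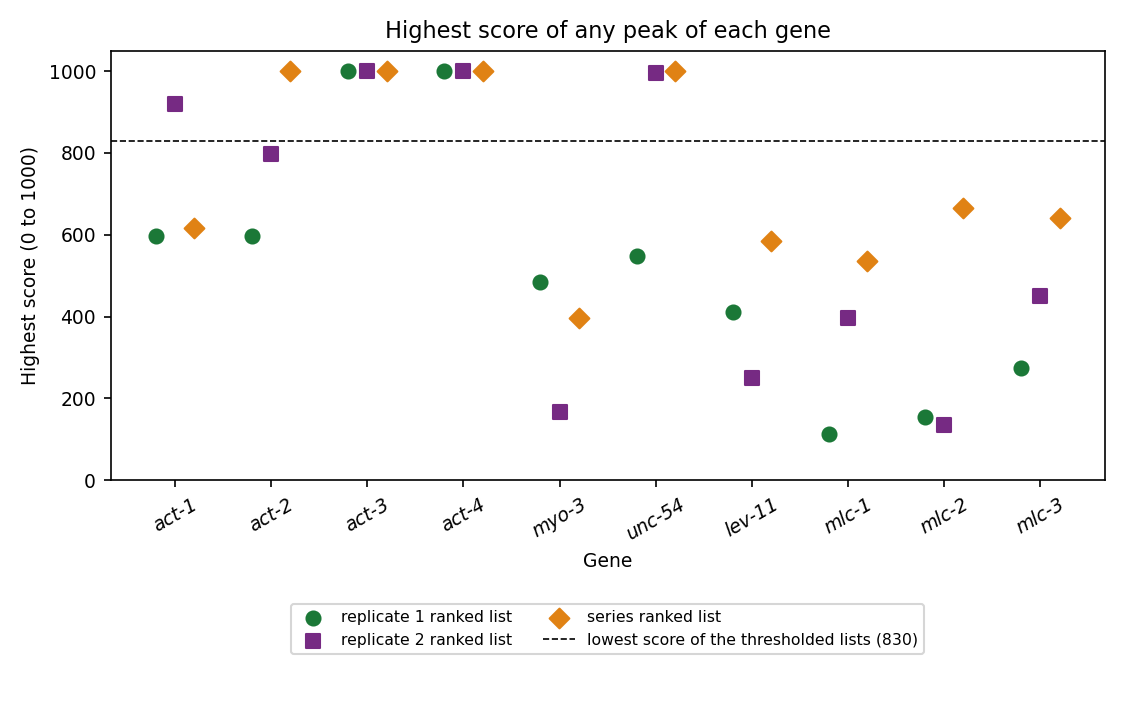
Highest score (0 to 1000) of any ranked peak of each of the 10 genes in replicate 1 (green circles), replicate 2 (purple squares) and the series (orange diamonds), with a dashed line at 830, the lowest score of the thresholded lists. Only act-3 and act-4 lie above the line in all 3 lists, and act-1 does so in replicate 2 alone.

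The sequence around the 6 thresholded summits was searched on both strands for 3 sets of letters, each counted whether or not it overlaps another. The first was the E-box CANNTG, bound by basic helix-loop-helix factors such as the muscle factor HLH-1. The second was AGATAA, the GATA-like core bound by EVI1, the mammalian relative of EGL-43. The third was the CArG box, bound by serum response factor and its relatives. Within 50 bp of the summit 0 of the 6 held an E-box, against 34.9% of all 3146 series summits, and 0 held AGATAA or a CArG box, against 1.84% and 0.159%. Within 150 bp 3 of the 6 held an E-box, against 68.9% of all summits. AGATAA and a CArG box were each found within 150 bp at act-2 only, against 9.38% and 1.08% of all summits. No match says only that these letters are not in the window. The share of G and C within 50 bp was 65.3% at unc-54, 62.4%, 60.4% and 46.5% at the act-4 summits 75 bp upstream, 1767 bp after and 546 bp after the start, 54.5% at act-3 and 43.6% at act-2, with a median of 52.5% over all summits.

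The same count was made for 57 related genes, mostly of the sarcomere, its attachments and muscle excitation. Of these 57, 15 had a summit in the series thresholded list, or 26.3%, against the 13.6% of all genes given above. The share was 31.6% in the conservative list, 8.77% in replicate 1 and 10.5% in replicate 2, where all genes had 13.1%, 7.11% and 7.42%. By role, 5 of 18 further thin filament and actin-binding genes had a series summit, 4 of 17 thick filament genes, 5 of 15 dense body and attachment genes, 1 of 4 genes of excitation and calcium handling and 0 of 3 muscle transcription factors. The list also holds act-5, an intestinal actin, and the nonmuscle myosin genes nmy-1, nmy-2 and mlc-4, of which act-5 and nmy-1 had a series summit. Without these 4, named after their values were seen, 13 of 53 genes had one, or 24.5%. Several of these genes are long, and the windows of vab-10 and unc-52 span 59568 and 39136 bp, against a median of 4027 bp over all genes.

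The strongest of these was cap-2, which encodes a subunit of the actin capping protein, with a signal of 337.6 and rank 234, 227 bp upstream of its start and thresholded in both replicates. No other gene of the 57 had a peak above that of act-3. The cofilin gene unc-60 had 186.1 at 298 bp upstream and the kindlin gene unc-112 had 173.8 at 414 bp upstream, both thresholded in replicate 2 and not in replicate 1. The spectraplakin gene vab-10 had 205.4 in an intron, within 500 bp of a tRNA gene. The strongest summits of unc-95, a LIM domain protein of the dense body, and of sca-1, the calcium pump of the sarcoplasmic reticulum, lay in coding exons with 204.4 and 176.8. So did those of unc-52, which encodes perlecan, with 147.7, and of the troponin T gene tnt-4, with 130.6, and neither of these was in a replicate thresholded list.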

How the data were processed

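ChIP-seq peaks from 2 biological replicates of tagged L4 larvae were used as deposited, as ranked and thresholded peak lists on ce11, per the labels. Scores are those the authors deposited, derived from the irreproducible discovery rate, and the signal value is the authors' own measure of strength. The summit offset in base pairs was also deposited by the authors. The aligner, the peak caller, the scaling of the signal and the read length were not given in the sources used here, and 0 columns of samples were left unmapped. Per the deposited read-me files, the lists derive from the alignments and a further input.

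Summits were assigned to genes of Ensembl release 115 (WBcel235), mitochondrial genes left out, with Python 3.11.15 and pandas 2.3.3, and the assignment was checked on simulated summits. A peak in 2 gene windows was counted for both. Peaks were paired between lists when they shared 1 bp. A word counted as repeated when it occurred elsewhere in the genome on either strand. Coordinates are 1-based.

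The members, the 57 related genes and the rules were chosen with earlier results of these data known. All 10 members are named, with the 8 related genes of highest signal in the series thresholded list and any gene near a member's peak. Alternatives were other windows, lists, signal and score limits, overlaps, word lengths and motif windows.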

Additional observations from a re-analysis of the deposited data

How the results depend on the processing

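The count of filament genes with a summit in the series thresholded list, 4, was 3 with 500 bp upstream (9.58% of all genes) or with the promoter alone (7.57%), 5 with 5000 bp upstream (19.1%), and 4 with any base of the peak (14.4%) or the conservative list (13.1%). It was 2 with peaks at or above the median signal (7.57% of all genes), which leaves act-3 and act-4. It was 10 in the series ranked list (59.1%) and 8 among ranked peaks with a score of at least 540 (24.9%), a limit chosen after seeing the data. The lists of single replicates gave 2 to 4 filament genes, the lower value without replicate 2, and 5 to 6 of the 57 related genes, against 15 in the series list. Of all genes, 7.11% had a summit in replicate 1 and 7.42% in replicate 2. With the promoter alone the related genes numbered 9, and without act-5, mlc-4, nmy-1 and nmy-2, an alternative also added after seeing the data, 13. In replicate 1 the count of 2 filament genes became 1 with 500 bp upstream or the promoter alone, and in replicate 2 the count of 4 became 2 with 500 bp upstream. The share of all genes under these narrower windows was not counted for the replicates, so these counts stand without a background. The strongest signal, 264.3 at act-3, became 221.4 at act-4 under both narrower windows, which end before the act-3 summit. The 3 peaks paired in both replicates stayed 3 with summits within 100 bp. They were 2 when the overlap had to cover at least 50% of the wider peak. The act-3 peak, 87 bp wide in the series, cannot meet this against replicate peaks of 310 and 324 bp, so the lower count reflects peak width. With words of 36 bases 1 of the 6 summits had repeated words, in place of 0. Within 150 bp in place of 50 bp of the summit, an E-box was found at 3 summits, AGATAA at 1 and a CArG box at 1, in place of 0 each. No paired analysis was possible because both samples belong to a single group. Read depth is unknown, so what it limits cannot be given.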
